A study of Mus musculus with 9 samples.

Results

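The genes described here are those of an interval on mouse chromosome 8 that were left after 20 genes of the same interval, listed in earlier work on these data, had been set aside. A gene was a member when its span on the GRCm38 assembly overlapped 36160000 to 50260000, where the loci for infarct volume mapped in crosses of B6 with WSB and of B6 with C3H coincide. The interval held 210 genes in the deposited table, and 190 of them were members, out of 54532 genes in all. The study compared RNA from the brain cortex of 3 male mice of each of 3 inbred strains, C57BL6/J (B6), C3H/HeJ (C3H) and WSB/EiJ (WSB), all adults of 8 to 12 weeks, and the labels name no treatment. B6 and C3H are classical laboratory strains, and WSB is derived from wild mice. The question put to these genes is whether the level of any of them differed between the strains.

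An interval of this kind is a stretch of chromosome handed down with a trait in a cross, and its genes share a position rather than a function. The best known of its residents in brain carry out general tasks of the cell. Slc25a4 exchanges ADP for ATP across the inner mitochondrial membrane, Tusc3 belongs to the complex that attaches sugar chains to new proteins in the endoplasmic reticulum, and Pcm1 is the scaffold of the granules that surround the centrosome. Others are genes of liver, testis or early embryo that happen to lie beside them.

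Levels were given as FPKM, the number of fragments divided by the length of the gene in kilobases and by a scale for the library, and the values stood for whole reads in every library. The reads on genes ranged from 17651630 to 21562429 in B6, from 19042306 to 19433751 in C3H and from 16317439 to 17784118 in WSB. C3H replicate 2 stood apart from the other libraries, with a summed level of 343100 FPKM against 281409 to 309885 in the other 8. The summed level of 6 oligodendrocyte markers was 383 to 547 FPKM in WSB, 693 to 872 in B6 and 645 to 874 in C3H, and that of 4 blood markers was 630 to 940 FPKM in C3H, 193 to 227 in B6 and 248 to 327 in WSB. Markers of choroid plexus summed to 64.4 to 762 FPKM and of striatum to 49.5 to 221 FPKM among the B6 mice alone. The part of these differences in the results was not tested, except where a value is given beside a result, and in whole tissue fewer cells of a type and less RNA per cell cannot be told apart. Fold changes also ran with base composition across genes averaging 1 FPKM or more. Over 12989 genes the Spearman correlation of the log2 change with GC content was 0.48 for C3H against B6, and it was 0.11 over 12987 genes for WSB against B6. For WSB against C3H it was -0.40 over 12993 genes, and values with this trend removed are given below beside the differences of members described in full that it moved most. The authors state that the mouse reference assembly derives from B6. Reads of C3H and WSB that differ from B6 sequence may have been lost in alignment. Their part in any lower level of C3H or WSB given below was not tested.

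Most members had no reads or nearly none in these libraries. No read was counted for 97 of the 190 members in any of the 9 mice, 132 had at most 3 reads in every mouse, and 45 reached a mean of 0.1 FPKM over the 9 mice. Of 48 protein-coding members, 31 reached that mean, 25 reached 1 FPKM and 7 reached 10 FPKM. Of the 142 other members, which include 50 processed pseudogenes, 32 lincRNAs and 15 antisense RNAs, 14 reached 0.1 FPKM and 1 reached 1 FPKM. All 6 miRNA genes and all 5 snRNA genes were listed at 0 reads. The authors sequenced mRNA, so these values do not show that such small RNA genes are silent. Of the 50 processed pseudogenes, 42 had 0 reads in every mouse. The authors' methods do not say how reads that match several copies were counted, so these counts do not show silence either. At the first edge, Prag1 (4.66 FPKM over all mice) lay just before the interval and the lincRNA Gm38414 (0.061 FPKM) was the first member with reads, and at the other edge the last member with reads was Gm45324 (0.0047 FPKM) and the next gene outside was Gm2516 (0.014 FPKM).

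**Figure D1:**
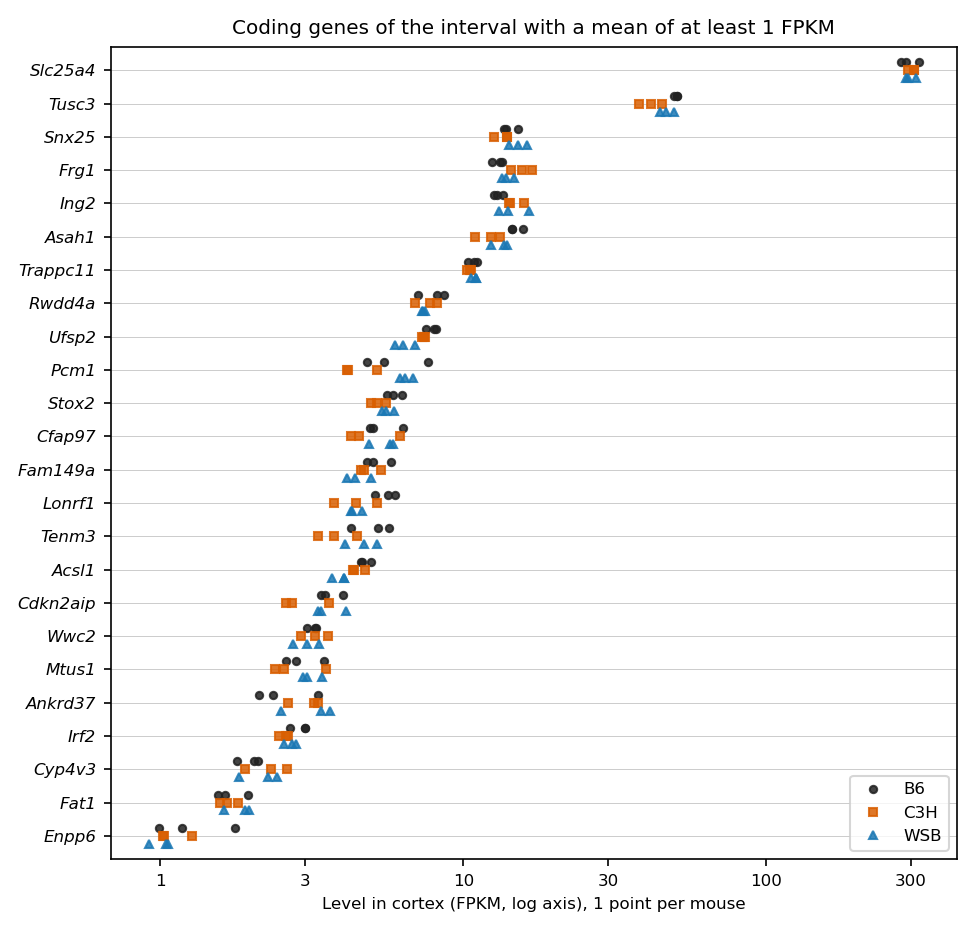
Level of 24 of the 25 protein-coding members averaging 1 FPKM or more in cortex, on a logarithmic axis in FPKM, with 1 point for each of 3 B6 (circles), 3 C3H (squares) and 3 WSB mice (triangles). Slc25a4 lies near 300 FPKM in every mouse, Tusc3 between 38.1 and 50.8 FPKM, and the other 22 genes under 20 FPKM.

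Each pair of strains was compared by limma on log2(FPKM + 0.1) over all genes averaging 0.1 FPKM or more in those 6 mice, with Benjamini-Hochberg adjustment over all of them and a threshold of 0.05. On that scale the change of low genes is understated. Between WSB and B6, 0 of 45 members tested passed, with 5.90% of all genes passing. Between C3H and B6, 0 of 46 passed, with 4.64% of all genes passing. These 2 counts carry no information on the members, because the 20 genes set aside include every gene of the interval that passed: 5 of 16 tested for WSB against B6 and 4 of 16 for C3H against B6. limma with voom weights on the recovered reads called 0 members in both, and nothing is read from those counts either, since the same genes were set aside. Between WSB and C3H, 1 of 45 members passed, Pcm1, with 5.74% of all genes passing.

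Without adjustment, 6 members had a p under 0.05 in each comparison, 13.3% of those tested for WSB against B6, 13.0% for C3H against B6 and 13.3% for WSB against C3H. The shares of all genes were 20.4%, 24.1% and 23.8%. The 3 values of each strain did not overlap for 6 members between WSB and B6 (26.0% of all genes), for 8 between C3H and B6 (28.9% of all genes) and for 8 between WSB and C3H (28.6% of all genes). The median difference of the members was close to that of all genes: -0.0067 against 0.0025 on the log2 scale for WSB minus B6, -0.017 against -0.0038 for C3H minus B6, and -0.019 against 0.0089 for WSB minus C3H. Nothing is read from these shares and medians in any of the 3 comparisons, since setting genes aside fixes them in part too. Of the 16 tested genes set aside, 56.25% had a p under 0.05 for WSB against B6 and 68.75% for C3H against B6. For WSB against C3H, 57.1% of the 14 tested had a p under 0.05, and 1 of the 14 passed the adjusted threshold. The same holds for the counts in each group of genes below, and those for WSB against C3H stand beside the 5.74% of all genes. Members and genes set aside were not tested against each other.

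For the 25 coding members with at least 1 FPKM the size of any difference was bounded in the values as deposited. In all 3 comparisons the 95% interval of all 25 lay inside a 2-fold change in either direction. Inside a 1.5-fold change it held 23 of 25 for WSB against B6, 19 of 25 for C3H against B6 and 22 of 25 for WSB against C3H. Setting genes aside fixes these counts in part too, and the share of other genes so bounded is not given. The counts therefore describe these 25 genes only. Their 95% intervals leave the GC trend in, and some differences with the trend removed lay outside them. Examples for C3H minus B6 are Ufsp2 (0.29, interval -0.28 to 0.088) and Tusc3 (-0.049, interval -0.46 to -0.088). Trappc11, a subunit of a complex that tethers transport vesicles, was bounded most tightly of the 25 against B6. Its level was 10.3, 11.1 and 10.9 FPKM in the 3 B6 mice, 10.5, 10.6 and 10.3 in C3H and 11, 10.6 and 11 in WSB. The interval of its log2 difference was -0.15 to 0.18 for WSB minus B6 and -0.21 to 0.13 for C3H minus B6. The 3 strains overlapped throughout.

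**Figure D2:**
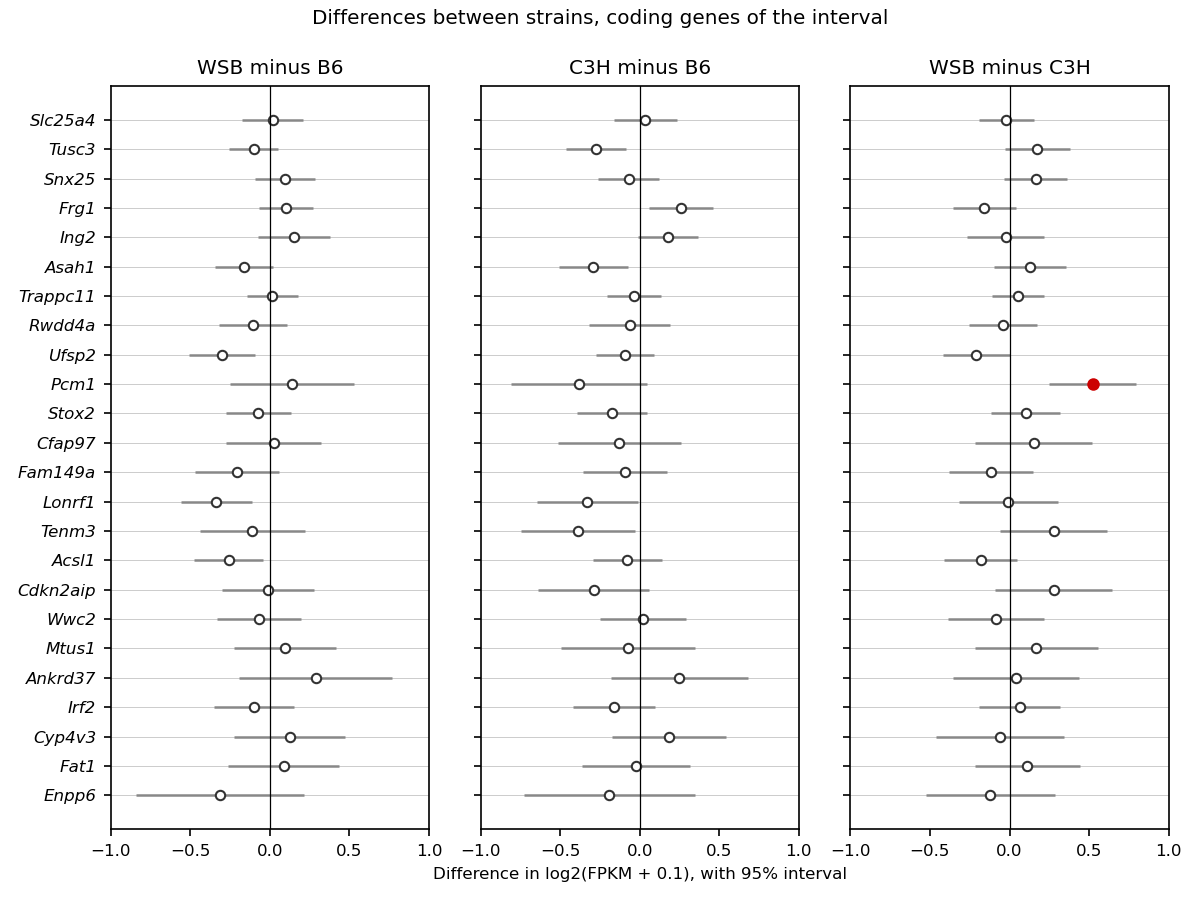
Differences between strains in log2(FPKM + 0.1) for the same 24 coding genes, as points with their 95% intervals, in 3 panels for WSB minus B6, C3H minus B6 and WSB minus C3H. The filled point marks Pcm1, with 0.52 for WSB minus C3H, and the open points did not pass the adjusted threshold.

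Pcm1 (ENSMUSG00000031592) lies at 41239752 to 41332344 on the plus strand. Its level was 6.81, 6.43 and 6.17 FPKM in the WSB mice, 4.13, 5.20 and 4.17 in C3H and 7.65, 5.48 and 4.80 in B6. All 3 WSB mice lay above all 3 C3H mice, while the B6 mice spread across both. The difference of WSB minus C3H was 0.52 on the log2 scale (SE 0.12, 95% interval 0.25 to 0.79, limma adjusted p = 0.0465), a 1.44-fold higher level in WSB, from 830 to 844 reads per mouse in WSB and 573 to 751 in C3H. Against B6, neither strain passed: the difference was 0.14 for WSB (SE 0.17, adjusted p = 0.701) and -0.38 for C3H (SE 0.18, adjusted p = 0.244). The C3H minus B6 difference was -0.15 with the GC trend removed (adjusted p = 0.501) and ranged from -0.52 to -0.19 when 1 mouse was left out. The WSB and C3H difference was lost when all 3 strains entered one fit (adjusted p = 0.0844), and when any 1 mouse other than C3H replicate 2 was left out (adjusted p = 0.0992 to 0.165). Without C3H replicate 2 it was 0.63 (adjusted p = 0.0174), and with the GC trend removed it was 0.32 (adjusted p = 0.0462). The number of all genes passing between WSB and C3H moved too. It was 1182 with all 6 mice, 2002 without C3H replicate 2 and 475 to 715 when any other mouse was left out. The GC content of the longest Pcm1 transcript was 41.3%.

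In the group of energy metabolism and mitochondria, 0 of 5 members passed in any comparison. Slc25a4 had the highest level of all members, with 278, 288 and 318 FPKM in B6, 307, 306 and 293 in C3H and 289, 312 and 293 in WSB. That was 59.3% ± 2.1, 61.7% ± 0.6 and 60.3% ± 1.7 of the members' summed FPKM in B6, C3H and WSB (SD, n = 3 each). The strains overlapped, and the log2 difference was 0.017 (95% interval -0.18 to 0.21) for WSB minus B6 and 0.036 (95% interval -0.16 to 0.23) for C3H minus B6. With the GC trend removed these were 0.0028 and -0.0067. Cyp4v3, a fatty acid hydroxylase of the cytochrome P450 family, had 1.97 ± 0.16 FPKM in B6, 2.27 ± 0.36 in C3H and 2.17 ± 0.32 in WSB (mean ± SD, n = 3 each), and these ranges overlapped too. Primpol, which restarts stalled DNA replication, had 0.319 to 0.627 FPKM across the 9 mice with no strain apart, and it shares 4414 bases on the opposite strand with Cenpu.

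Acsl1 (ENSMUSG00000018796, 46471037 to 46536051, plus strand) activates long-chain fatty acids by joining them to coenzyme A. It had 4.04, 3.67 and 4.05 FPKM in WSB, 4.94, 4.61 and 4.58 in B6 and 4.34, 4.72 and 4.32 in C3H. The 3 WSB mice were the lowest of the 9. The difference was -0.26 on the log2 scale for WSB minus B6 (SE 0.092, limma adjusted p = 0.169) and -0.18 for WSB minus C3H (SE 0.099, adjusted p = 0.306), so neither passed. With the GC trend removed the second was -0.30 (adjusted p = 0.0717). Asah1, the lysosomal ceramidase that cleaves ceramide, had 15.7, 14.4 and 14.5 FPKM in B6, 10.95, 13.2 and 12.4 in C3H and 13.9, 12.3 and 13.6 in WSB. Here the 3 B6 mice were the highest. The difference was -0.29 for C3H minus B6 (SE 0.092, adjusted p = 0.121) and -0.16 for WSB minus B6 (SE 0.078, adjusted p = 0.300), and with the GC trend removed the first was -0.13 (adjusted p = 0.312).

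In the group of secretion, endosomes and protein modification, 0 of 7 members passed in any comparison. Ufsp2 (ENSMUSG00000031634, 45975528 to 45996958, plus strand) is the protease that releases the ubiquitin-like protein UFM1 from its targets. It had 6.93, 6.33 and 5.95 FPKM in WSB, 7.40, 7.46 and 7.33 in C3H and 7.55, 8.13 and 8.03 in B6. As deposited, the 3 strains did not overlap anywhere, with B6 highest and WSB lowest. The difference was -0.30 for WSB minus B6 (SE 0.088, limma adjusted p = 0.103), -0.094 for C3H minus B6 (SE 0.078, adjusted p = 0.488) and -0.21 for WSB minus C3H (SE 0.089, adjusted p = 0.210). Its transcript has a GC content of 34.8%, the lowest of the 25 coding members, and with the GC trend removed C3H minus B6 turned to 0.29 (adjusted p = 0.297), WSB minus B6 was -0.14 (adjusted p = 0.598) and WSB minus C3H was -0.43 (adjusted p = 0.0433). The order of B6 and C3H therefore rests on how base composition is treated.

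Ufsp2 starts 276 bases from 1700029J07Rik, 1 of the genes set aside, which runs the other way from its start at 45975252. Across the mice 1700029J07Rik had 1.36 ± 0.11 FPKM in B6, 0.891 ± 0.047 in C3H and 0.580 ± 0.046 in WSB (mean ± SD, n = 3 each), with values that did not overlap. That is the order of strains of Ufsp2 as deposited, which for C3H and B6 turned with the GC trend removed (0.29 for C3H minus B6). Most of the stretch between the starts is printed because both genes had that order as deposited. The sequence before Acsl1 is printed because its 3 WSB mice were also lowest. Both were chosen after the values were seen, from a longer set of genes considered. The others were absent from the RefSeq promoter table, or their upstream bases overlapped a neighbour's transcribed start. Both printed stretches are B6 sequence only, so nothing on the order of strains is read from them. They are the 250 bases before each gene's start in RefSeq (GRCm38.p6, B6 reference, plus strand, written 5′ to 3′), at chr8:45975278-45975527 and chr8:46470787-46471036, and capitals mark matches to the motifs searched.
Ufsp2: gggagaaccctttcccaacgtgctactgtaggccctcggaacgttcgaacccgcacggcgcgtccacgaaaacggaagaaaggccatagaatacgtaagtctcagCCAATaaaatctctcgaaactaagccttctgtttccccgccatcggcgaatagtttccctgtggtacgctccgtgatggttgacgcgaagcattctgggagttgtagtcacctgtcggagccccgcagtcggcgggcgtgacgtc
Acsl1: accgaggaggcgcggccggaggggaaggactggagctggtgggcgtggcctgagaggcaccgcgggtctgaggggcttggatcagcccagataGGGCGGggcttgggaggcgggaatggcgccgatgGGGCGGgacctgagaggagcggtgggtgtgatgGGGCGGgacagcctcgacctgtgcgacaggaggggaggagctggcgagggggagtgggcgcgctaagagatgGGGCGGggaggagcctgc

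The search took the CCAAT box, the GC box, the TATA box, an ETS motif and the E-box on both strands. The Ufsp2 stretch held 1 match, CCAAT, and the Acsl1 stretch held 4 matches, all GGGCGG, and no other motif of the 5 was found in either. Of the 32851 promoters of the RefSeq table, 33.8% hold the CCAAT box (its letters are its name), 32.7% the GC box (GGGCGG), 12.4% the TATA box (TATAAA), 6.91% the ETS motif (CCGGAAG) and 6.02% the E-box (CACGTG) in the same 250 bases, so these matches are common. Ufsp2 had 25 CpG dinucleotides in its stretch and Acsl1 had 20, more than in 89.3% and 82.1% of those promoters. The table matched 49 members, 34 of them coding, and Acsl1 has a further start there that is not printed.

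Tusc3 was the second most abundant member. It had 50.6, 50.8 and 49.6 FPKM in B6, 45.4, 41.5 and 38.1 in C3H and 49.7, 46.8 and 44.4 in WSB. The 3 C3H mice lay below the 3 B6 mice, and WSB lay between and overlapped both. The difference was -0.28 for C3H minus B6 (SE 0.081, limma adjusted p = 0.103), and with the GC trend removed it was -0.049 (adjusted p = 0.835). Lonrf1, a protein with RING finger and LON domains, had 5.97, 5.10 and 5.66 FPKM in B6, 3.75, 5.19 and 4.42 in C3H and 4.27, 4.28 and 4.62 in WSB. The B6 mice lay above all WSB mice and overlapped C3H, and the difference was -0.34 for WSB minus B6 (SE 0.096, adjusted p = 0.0984) and -0.33 for C3H minus B6 (SE 0.14, adjusted p = 0.196). The second ranged from -0.44 to -0.21 when 1 mouse was left out. Snx25, a sorting nexin of endosomes, had 13.5 to 15.2 FPKM as strain means, Rwdd4a 7.37 to 7.97 and Ankrd37, an ankyrin repeat protein, 2.59 to 3.17. For these 3 genes the adjusted p was at least 0.277 in all 3 comparisons. The WSB mice lay above all C3H mice for Snx25 (14.2 to 16.2 against 12.6 to 14.0 FPKM), and B6 overlapped both.

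**Figure D3:**
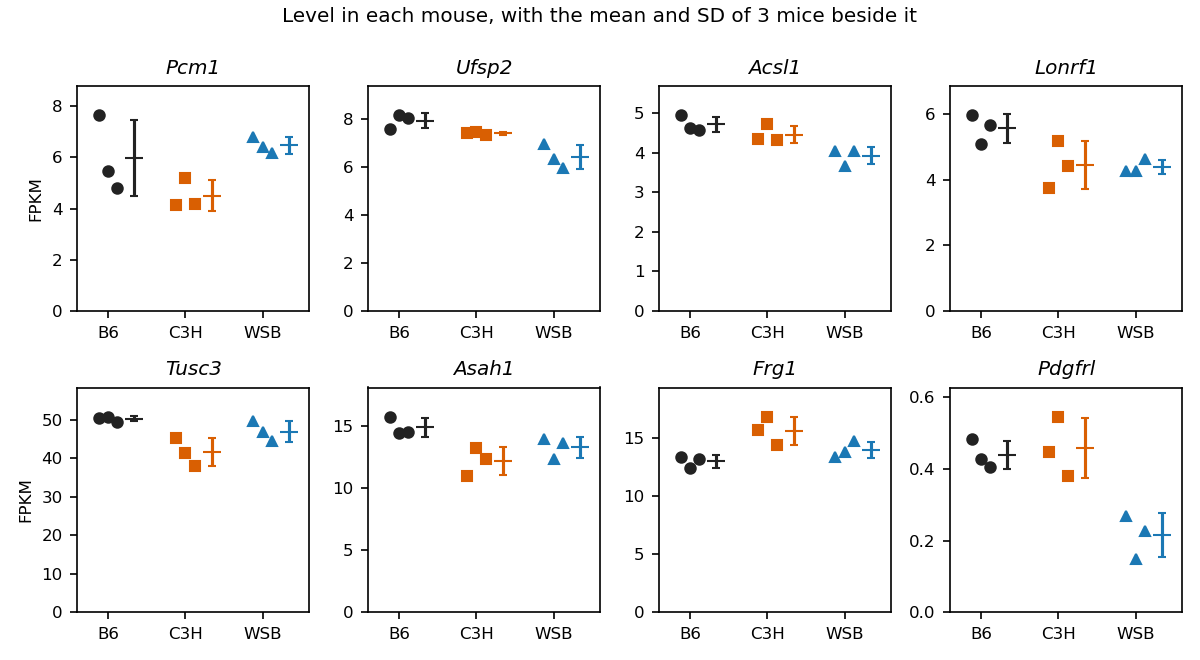
Level in FPKM of 8 members in each mouse, in 8 panels that start at 0, with the mean and SD of the 3 mice of a strain beside their points. WSB is lowest for Ufsp2, Acsl1 and Pdgfrl, B6 is highest for Asah1 and, as deposited, for Ufsp2 (C3H minus B6 turned to 0.29 with the GC trend removed), and Pcm1 in WSB (6.17 to 6.81) lies above C3H (4.13 to 5.20).

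Across the 45 members that averaged 0.1 FPKM or more over the 9 mice, 3 had all 3 WSB values below both other strains (5.66% of all genes), namely Ufsp2, Acsl1 and Pdgfrl, and 2 had all 3 B6 values above both others (5.05% of all genes), Ufsp2 and Asah1. These counts are of the values as deposited, and for Ufsp2 the C3H minus B6 difference turned to 0.29 with the GC trend removed. C3H lay apart from both on the low side in 0 (5.41% of all genes) and on the high side in 0 (6.03% of all genes), and the counts were also 0 for B6 lowest (5.34%) and for WSB highest (5.20%). Genes set aside can lie apart in the same way, as 1700029J07Rik did, with B6 highest and WSB lowest. Nothing is therefore read from these counts beside the shares of all genes. Pdgfrl, a secreted protein related to the receptors of platelet-derived growth factor, had 0.269, 0.148 and 0.228 FPKM in WSB, 0.482, 0.428 and 0.405 in B6 and 0.447, 0.545 and 0.379 in C3H. These values rest on 8 to 14 reads per mouse in WSB, 27 in every B6 mouse and 23 to 33 in C3H. The difference was -0.79 for WSB minus B6 (SE 0.29, limma adjusted p = 0.182) and -0.83 for WSB minus C3H (SE 0.30, adjusted p = 0.156), and neither passed.

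In the group of interferon and growth control, 0 of 5 members tested passed in any comparison. Irf2, a transcription factor that binds interferon response elements, had 2.89 ± 0.185 FPKM in B6, 2.57 ± 0.090 in C3H and 2.69 ± 0.115 in WSB (mean ± SD, n = 3 each). Its C3H mice (2.47 to 2.64 FPKM) lay below all B6 mice (2.68 to 3.01), and WSB overlapped both. Ing2, a reader of methylated histone H3, had 12.6, 13.0 and 13.5 FPKM in B6, below the 14.1, 15.9 and 14.2 FPKM of C3H. WSB overlapped both, with 16.4, 13.1 and 14.1 FPKM, and the C3H minus B6 difference was 0.18 (SE 0.080, limma adjusted p = 0.223). Cdkn2aip, a regulator of the p53 pathway, had 3.63 ± 0.34 FPKM in B6, 2.97 ± 0.54 in C3H and 3.60 ± 0.43 in WSB (mean ± SD, n = 3 each). Fgf20, a growth factor, had 0 reads in all mice.

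Pcm1 was the only 1 of 7 tested members to pass between WSB and C3H in the group of centrosome, cilia and cytoskeleton, and none of this group passed against B6. Mtus1, which binds microtubules, had 2.82 to 3.14 FPKM as strain means, Cfap97, a protein of cilia and flagella, 4.98 to 5.49 and Fam149a 4.49 to 5.21. The strains overlapped for all 3 of these genes. Cenpu, of the centromere, and Pdlim3, which binds actin-anchoring proteins, had strain means of 0.239 to 0.388 and 0.294 to 0.351 FPKM. Ccdc110 had between 1 and 12 reads in any mouse.

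Of the adhesion genes, 0 of 3 or 4 tested passed in any comparison. Tenm3, a teneurin that guides the wiring of neurons, had 4.24, 5.21 and 5.69 FPKM in B6, 3.31, 4.45 and 3.75 in C3H and 4.08, 5.19 and 4.71 in WSB. The lowest 2 values were from C3H, which overlapped both other strains, with a C3H minus B6 difference of -0.39 (SE 0.15, limma adjusted p = 0.181). Fat1, an atypical cadherin, had 1.71 ± 0.21 FPKM in B6, 1.68 ± 0.12 in C3H and 1.82 ± 0.18 in WSB (mean ± SD, n = 3 each), and Wwc2, of the Hippo pathway, had 3.05 to 3.24 FPKM as strain means. Cldn24, a claudin of tight junctions, had 0 reads in every B6 and C3H mouse and 3, 3 and 1 in the WSB mice, at or under the limit of 3 reads, so no fold is given. Its transcript is 94.6% identical over 610 bases to that of Cldn22, which lies inside Wwc2 and had no reads, so the source of these few reads is uncertain.

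Among nuclear proteins, Frg1, which binds RNA and associates with the splicing machinery, had 15.7, 16.8 and 14.4 FPKM in C3H, 13.4, 12.4 and 13.2 in B6 and 13.4, 13.8 and 14.7 in WSB. All C3H mice lay above all B6 mice, and WSB overlapped both. The C3H minus B6 difference was 0.26 (SE 0.085, limma adjusted p = 0.130), and with the GC trend removed it was 0.40 (adjusted p = 0.0165), a call that rests on that treatment. Stox2, a transcription factor with a winged helix, had 5.91 ± 0.33 FPKM in B6, 5.23 ± 0.31 in C3H and 5.62 ± 0.27 in WSB (mean ± SD, n = 3 each), with an adjusted p of at least 0.294. Its C3H mice (4.95 to 5.56 FPKM) lay below all B6 mice (5.61 to 6.26), and WSB overlapped both. Helt, a transcription factor of GABAergic precursors, had at most 9 reads in any mouse.

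**Figure D4:**
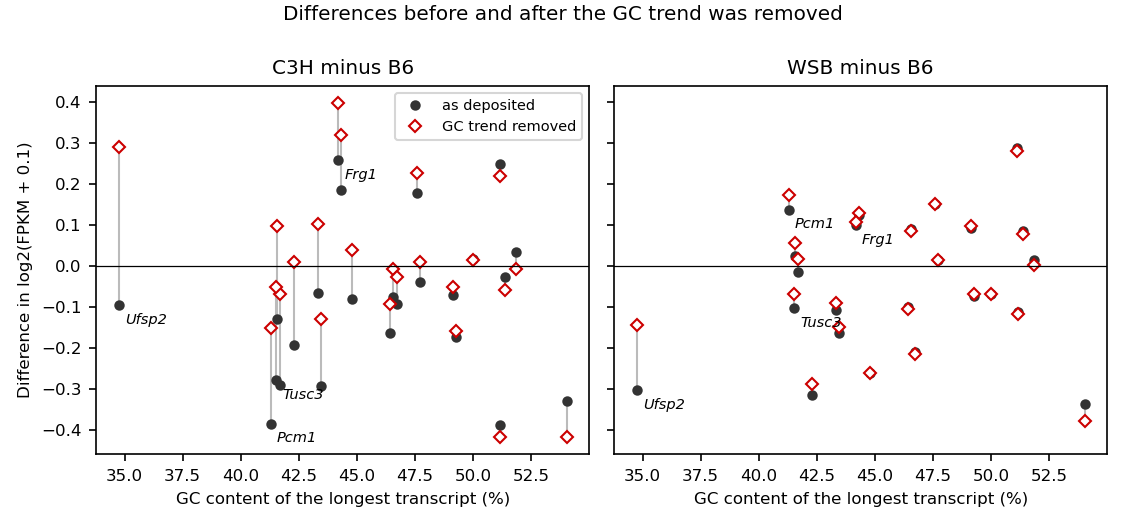
Differences in log2(FPKM + 0.1) of the same 24 coding members against the GC content of their longest transcript in percent, as deposited (filled circles) and with the GC trend removed (open diamonds), joined by a line for each gene, for C3H minus B6 and WSB minus B6. For C3H minus B6, Ufsp2 moves from -0.094 to 0.29 and Tusc3 from -0.28 to -0.049, while the changes for WSB minus B6 are smaller.

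Enpp6, a choline phosphodiesterase of newly formed oligodendrocytes, is the member tied most closely to a glial type. It had 1.76, 0.988 and 1.18 FPKM in B6, 1.02, 1.03 and 1.27 in C3H and 1.06, 0.919 and 1.04 in WSB. The strains overlapped, and the difference for WSB minus B6 was -0.31 with a wide interval of -0.84 to 0.22 (limma adjusted p = 0.511). It ranged from -0.48 to -0.094 when 1 mouse was left out and was smallest without B6 replicate 1. The summed level of the 6 oligodendrocyte markers was lower in every WSB mouse than in every mouse of the other strains, as given above, and 0 of the 6 passed between WSB and B6 while 1 was lower in WSB than in C3H. The sum of 4 markers of newly formed oligodendrocytes and precursors was 35.5 to 47.0 FPKM in WSB, 53.6 to 60.2 in B6 and 60.9 to 86.2 in C3H. The 4 did not move together, and 0 of the 4 passed in any comparison. Bcas1 had 20.5 to 31.8 FPKM in WSB, 37.6 to 43.5 in B6 and 44.6 to 69.6 in C3H. Gpr17 had 9.18 to 9.83, 9.91 to 11.3 and 10.9 to 12.3 FPKM in the same order. For the other markers, Pdgfra and Cspg4, the strains overlapped. The part of both lists in the values of Enpp6 was not tested.

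The remaining 17 coding members averaged under 0.1 FPKM over the 9 mice, and 9 of them had no read in any mouse: Fgf20, Adam20, Triml2, Adam26b, Adam26a, Gm5346, Adam34, Gm45753 and Cldn22. The Adam genes among them are known mainly from testis. A count of 0 allows up to 3 reads per library. Cldn22 overlaps Wwc2 by 995 bases on the opposite strand, and whether reads there could be assigned to Cldn22 is not known. Of the others, Lrp2bp reached 0.143 FPKM and 12 reads, Cldn24 0.272 FPKM and 3 reads, Fgl1 0.0756 FPKM and 7 reads, Klkb1, the plasma prekallikrein, 0.0573 FPKM and 5 reads, Zfp42, a marker of embryonic stem cells, 0.0582 FPKM and 2 reads and Triml1 0.0504 FPKM and 3 reads. The melatonin receptor gene Mtnr1a and the coagulation factor gene F11 had at most 1 read in any mouse. Lrp2bp entered the test of C3H against B6 and Cldn24 both tests of WSB, and neither passed (limma adjusted p = 0.764 for Lrp2bp, 0.128 and 0.119 for Cldn24). Fgl1, singled out after its values were seen, had 6, 4 and 7 reads in B6, 0, 0 and 1 in C3H and 0 in every WSB mouse. Its B6 mice lay above all others, and with no filter on low values the difference was -0.71 for WSB minus B6 (SE 0.19, limma adjusted p = 0.117) and -0.66 for C3H minus B6 (SE 0.20, adjusted p = 0.154). The rest of the 17 lay under the filter, and no test of them is given.

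Of the 142 members that do not code for protein, 17 entered at least 1 test and none passed with the settings above. They had at most 60 reads in a mouse. Sorbs2os, an antisense RNA chosen for mention after its values were seen, had 59, 44 and 20 reads in B6, 8, 19 and 17 in C3H and 60, 27 and 40 in WSB. Its 3 C3H mice had the fewest reads, in FPKM they lay below all WSB mice and overlapped B6, and the WSB minus C3H difference was 1.39 (SE 0.37, limma adjusted p = 0.0768), passing only with voom weights (1.63, adjusted p = 0.0454). It overlaps Sorbs2, a gene set aside, by 95973 bases on the opposite strand, and Sorbs2 had 5.31 ± 0.87 FPKM in B6, 3.76 ± 0.56 in C3H and 5.96 ± 1.12 in WSB (mean ± SD, n = 3 each). Whether the counting used strand is not given in the sources used here, so reads in the stretch the 2 genes share cannot be assigned by strand. The best match to a Sorbs2 transcript covered 391 of the 2474 bases of the longest Sorbs2os transcript. In all, 24 of the 50 members tested in any comparison overlap a gene on the opposite strand. Gm6180, the most abundant of the pseudogenes, had 8 to 21 reads per mouse and is 98.8% identical to the transcript of Cfl1, so its reads are uncertain.

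Some members lay head to head with another gene. There were 13 pairs with starts of opposite strands within 1000 bases that included a member, such as Trappc11 and Rwdd4a (194 bases apart), Irf2 and Gm16675 (217 bases) and Fat1 and Gm9908 (288 bases). Levels within a pair could differ widely: over the 9 mice Irf2 averaged 2.72 FPKM and Gm16675 0.160, while Trappc11 averaged 10.7 FPKM and Rwdd4a 7.65. Position along the interval was uneven as well, with 358 FPKM of the members' summed mean level starting between 46.16 and 48.16 Mb, where Slc25a4 lies, against 1.49 FPKM between 42.16 and 44.16 Mb.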

How the data were processed

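Cortex RNA of 9 male mice, 3 per strain, was sequenced. The authors trimmed reads with Cutadapt, and the submitters' processing notes name STAR, HTSeq and DESeq2. Deposited values are FPKM per gene and mouse. Strains were taken from the labels, and nothing says more of how the mice were related, so p-values measure the spread between these mice. FPKM times gene length gave whole reads (100% of values, tolerance 0.01). Counting limits cover counting error only.

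limma 3.58.1 in R 4.3.3 (eBayes with a trend, two-sided) was run on log2(FPKM + 0.1) for 2 strains at a time, over genes averaging 0.1 FPKM or more, after tests on simulated data. All 190 members had the same coordinates in GENCODE M21. GC content was that of the longest transcript, and its trend was removed by a loess curve per library. Copies were sought with blastn 2.17.0. Named genes were members past the threshold, coding members of at least 1 FPKM, other tested members with 1 strain apart, and coding members under the filter. Of these, 1 gene is counted in totals and is not reported here. The members and lists were chosen with earlier results of these data known. Alternatives were other pseudocounts (1 and 0.01) and filters (none and 1 FPKM), 1 fit of all strains, no trend, voom weights, GC removal, scaling to total reads, a replicate block, coding genes only and leaving out each mouse. Same-numbered mice had correlations of -0.157 to 0.037 and different-numbered mice of -0.150 to 0.196, so there was no sign of pairing by number. With 3 mice per strain this cannot exclude pairing.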

Additional observations from a re-analysis of the deposited data

Results flagged for a closer look

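Pcm1 differed between WSB and C3H in a fit of those 6 mice: WSB minus C3H was 0.52 on the log2 scale (SE 0.12, limma adjusted p = 0.0465), with 3 of 3 WSB mice above 3 of 3 C3H mice. Its adjusted p over 11 other settings ranged from 0.0152 to 0.115, and 7 of them passed. The size ranged from 0.32 to 0.56, all in the same direction. With B6 in the same fit the adjusted p was 0.0844, and neither strain passed against B6 (0.701 for WSB and 0.244 for C3H). When 1 mouse was left out the difference ranged from 0.47 to 0.63 and passed in 1 of 6 fits, that without C3H replicate 2, the library with the highest summed FPKM. In the other 5 the adjusted p was 0.0992 to 0.165. Of all genes, 1182 passed with all 6 mice, 2002 without C3H replicate 2 and 475 to 715 in the other 5 fits.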

How the results depend on the processing

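Pcm1 was the 1 member called between WSB and C3H, and the count was 0 with no filter, with all 3 strains in one fit, with no trend and with the replicate block, 2 with voom weights (Pcm1 and Sorbs2os) and 2 with the GC trend removed (Pcm1 and Ufsp2). For Pcm1 the adjusted p from limma was 0.0642, 0.0844, 0.0949 and 0.115 in the first 4 of these. Leaving out each mouse gave counts of 0 to 1 and a Pcm1 difference of 0.47 to 0.63 on the log2 scale, which passed only without C3H replicate 2. The count for C3H against B6 was 1 with the GC trend removed (Frg1). For WSB against B6, leaving out each mouse gave 0 to 1, the call being n-R5s96 without WSB replicate 1, an rRNA gene with 1 read in each of 2 WSB mice. The replicate numbers gave no sign of pairing the mice. The members under the filter were 145 of 190, 97 with no filter and 164 with a filter of 1 FPKM. The cause of these changes was not tested.

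Over 82 gene comparisons, removing the GC trend turned the sign of 14, scaling to total reads of 4 and leaving out a mouse of 33 values, all of which had an adjusted p over 0.05 before and after. With the GC trend removed, C3H minus B6 became 0.041 for Acsl1, 0.098 for Cfap97, 0.012 for Enpp6, 0.10 for Rwdd4a, -0.0067 for Slc25a4, 0.010 for Trappc11 and 0.29 for Ufsp2. WSB minus C3H became -0.019 for Asah1, -0.041 for Cfap97, -0.014 for Irf2, 0.039 for Lonrf1, 0.0095 for Slc25a4 and -0.018 for Tusc3, and WSB minus B6 became 0.019 for Cdkn2aip. Scaled to total reads, WSB minus B6 became 0.013 for Cdkn2aip, and WSB minus C3H became 0.014 for Ing2, 0.030 for Lonrf1 and 0.020 for Slc25a4. Without 1 mouse, WSB minus B6 ranged from -0.11 to 0.060 for Cdkn2aip, -0.041 to 0.14 for Cfap97, -0.0030 to 0.33 for Pcm1, -0.023 to 0.073 for Slc25a4, -0.013 to 0.036 for Trappc11 and -0.13 to 0.0043 for Wwc2. C3H minus B6 ranged from -0.36 to 0.027 for Enpp6, -0.088 to 0.068 for Fat1, -0.24 to 0.041 for Mtus1, -0.14 to 0.0039 for Rwdd4a, -0.0042 to 0.092 for Slc25a4 and -0.054 to 0.093 for Wwc2. WSB minus C3H ranged from -0.064 to 0.20 for Ankrd37, -0.18 to 0.057 for Cyp4v3, -0.12 to 0.047 for Ing2, -0.12 to 0.11 for Lonrf1, -0.11 to 0.011 for Rwdd4a and -0.053 to 0.0036 for Slc25a4. With 3 mice per strain, members of few reads were limited by depth, and no member that does not code for protein had more than 60 reads in a mouse.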
